A study of Homo sapiens with 12 samples.

Results

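The effect of SMRT knock-down in CDDP-treated cells was read from 4 of the 12 arrays of the series: the 2 arrays titled siSMRT with CDDP and the 2 titled siCtl with CDDP, compared across all probes. All cells were U2OS, a human osteosarcoma line that keeps a functional p53. In the siSMRT+CDDP group the cells received a mix of independent siRNAs against SMRT and, 2 days after transfection, 100 µM cisplatin (CDDP, a platinum drug that crosslinks DNA) for 6 h. The siCtl+CDDP cells received a scramble siRNA and the same CDDP dose and time. Other arrays used for contrast were siSMRT and siCtl cells without CDDP, titled as no treatment in the sample labels and called vehicle in a figure legend of the study, and cells with siRNA against NCoR (siNCOR) with CDDP, 2 arrays each. Each array carries total RNA from 1 of 2 biological replicates of its group, and the knock-down was by transfection of siRNA, with cells not selected for uptake as far as the study's methods say.

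SMRT and its relative NCoR are large co-repressors with no DNA-binding domain of their own. They are brought to genes by nuclear receptors without ligand and by factors such as BCL6, AP-1 and NF-kB, and they hold and activate the histone deacetylase HDAC3 together with TBL1X, TBL1XR1 and GPS2. CDDP damage activates p53, whose targets include the cell-cycle inhibitor CDKN1A and the phosphatase gene PPM1D (Wip1), which turns the damage signal down again. The mRNA of SMRT itself was not analysed here, so the knock-down was not checked on these arrays.

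The arrays were one-colour Illumina BeadChips with 48803 probes. Raw medians ran from 54 to 65.3 over the 12 arrays, 27% to 31.4% of probes lay above an intensity of 100, and the log2 values of replicates correlated at 0.9939 to 0.9957. Of the genes named by a probe, 9807 had a signal above 100 in both arrays of at least 1 group and were tested with limma. Values below are log2 intensities after background correction and quantile normalization. A log2 fold change is the siSMRT+CDDP mean minus the siCtl+CDDP mean, with its standard error (SE), and a gene is said to rise or fall at a Benjamini-Hochberg adjusted p under 0.05 over all genes tested. The number of arrays limits the precision, and a bulk sample cannot tell fewer cells of a kind from less RNA per cell. Of the markers of mesenchymal cells and osteosarcoma, 11 of 14 had a signal above 100 in these groups. Vimentin (VIM) was among the brightest, while FN1, COL1A2 and RUNX2 lay under 100 in these arrays.

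SMRT knock-down under CDDP raised 773 genes and lowered 921, which is 7.88% and 9.39% of the 9807 genes tested. The changes were mostly small. The median log2 fold change was 0.47 among the genes that rose and -0.50 among those that fell, and only 17 genes rose and 27 fell by 1 log2 unit or more. Among genes past the threshold, 225 were at least 1.5-fold higher (2.29%) and 293 at least 1.5-fold lower (2.99%). The groups did not overlap for any of the 1694 genes, against 60% of all genes tested with no overlap. Counts depend on the number of arrays: 292 genes rose and 427 fell without siSMRT+CDDP replicate 1, 326 and 435 without siSMRT+CDDP replicate 2, 373 and 426 without siCtl+CDDP replicate 1, and 456 and 590 without siCtl+CDDP replicate 2. Blocking the fit on replicate gave 1188 rises and 1320 falls. Median scaling in place of quantile normalization gave 354 and 530, and keeping dim probes gave 464 and 583.

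**Figure D1:**
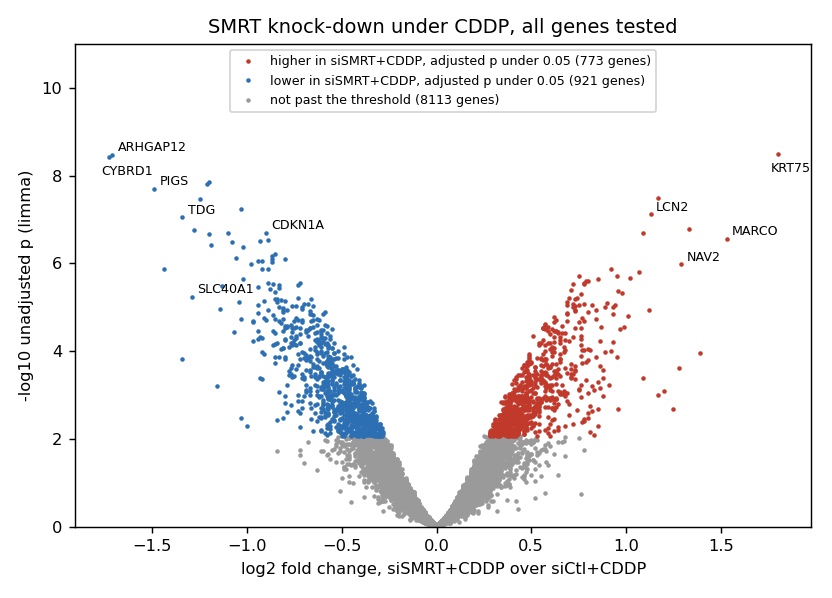
Each point is 1 of 9807 genes, with the log2 fold change of siSMRT+CDDP over siCtl+CDDP on the x axis and the -log10 unadjusted limma p on the y axis. Red points mark the 773 genes that rose and blue points the 921 that fell; KRT75 lies farthest to the right and CYBRD1 farthest to the left.

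The largest rise was in KRT75, a keratin of the hair follicle. Its log2 intensity was 9.83 and 9.92 in the siSMRT+CDDP arrays, against 8.0 and 8.16 in the siCtl+CDDP arrays, a log2 fold change of 1.80 (SE 0.118, limma adjusted p = 1.21e-05) or 3.48-fold. Both siSMRT arrays lay far above both siCtl arrays. MARCO, a scavenger receptor best known from macrophages, had 8.41 and 8.30 in siSMRT+CDDP and 7.07 and 6.58 in siCtl+CDDP (1.53, SE 0.15). The serotonin-gated channel subunit HTR3A had 9.16 and 9.05 in siSMRT+CDDP and 7.83 and 7.73 in siCtl+CDDP (1.33). KRT75, MARCO and HTR3A were also higher in untreated siSMRT than in untreated siCtl cells (2.02, 1.57 and 1.06, adjusted p at most 0.000388).

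Other strong rises were in NAV2, IL1RAPL1 and ADAM22. NAV2, which takes part in axon growth, had 8.40 and 8.32 in siSMRT+CDDP and 7.31 and 6.82 in siCtl+CDDP (1.29, SE 0.143, adjusted p = 0.000313). IL1RAPL1, a synaptic member of the interleukin-1 receptor family, had 8.50 and 8.54 in siSMRT+CDDP and 7.21 and 7.28 in siCtl+CDDP (1.28). ADAM22, a synaptic receptor without protease activity, had 7.92 and 8.11 in siSMRT+CDDP and 6.84 and 6.83 in siCtl+CDDP (1.17). Replicates of each group were close for ADAM22 and IL1RAPL1, while the siCtl arrays of NAV2 were further apart than its siSMRT arrays.

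LCN2 encodes lipocalin 2, which binds bacterial iron carriers and is a known target of NF-kB. It had 7.25 and 7.28 in siSMRT+CDDP and 6.19 and 6.08 in siCtl+CDDP (1.13, SE 0.0981, adjusted p = 7.5e-05), with a mean signal in siCtl cells under the floor of 100. SYTL3, an effector of the vesicle GTPase RAB27, had 10.96 and 11.11 in siSMRT+CDDP and 9.53 and 10.20 in siCtl+CDDP (1.17), and its call ended without either siSMRT+CDDP array or without siCtl+CDDP replicate 1 (adjusted p up to 0.11). The histone genes H4C8 and H2AC18 rose by 1.25 and 1.20 log2 units. They have many near-identical copies, so that the copy is uncertain, and their calls ended without siCtl+CDDP replicate 1 or siSMRT+CDDP replicate 2 (adjusted p up to 0.165 and 0.0962). The small nucleolar RNAs SNORD43 and SNORD46, which guide methylation of ribosomal RNA and lie in introns of ribosomal protein genes, rose by 1.39 and 1.12.

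The largest falls were in CYBRD1, a ferric reductase at the cell surface, and in ARHGAP12. CYBRD1 had 7.23 and 7.43 in siSMRT+CDDP, against 8.93 and 9.19 in siCtl+CDDP (-1.73, SE 0.115, limma adjusted p = 1.21e-05). ARHGAP12 had 6.29 and 6.21 in siSMRT+CDDP, against 7.93 and 8.0 in siCtl+CDDP (-1.71, SE 0.113). The siSMRT+CDDP mean signal of ARHGAP12 was 98.7, under the floor, and a second probe gave -0.95. SLC40A1 encodes ferroportin, the exporter of cellular iron. It had 8.09 and 7.80 in siSMRT+CDDP, against 9.43 and 9.05 in siCtl+CDDP (-1.29, adjusted p = 0.000886). CYBRD1 and SLC40A1 both handle iron at the cell surface. CYBRD1 (-2.03), ARHGAP12 (-1.02) and SLC40A1 (-0.97) were also lower in untreated siSMRT than in untreated siCtl cells.

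TDG, the glycosylase that removes thymine from G:T mismatches and takes part in DNA demethylation, had 9.18 and 9.40 in siSMRT+CDDP, against 10.60 and 10.65 in siCtl+CDDP (-1.34, SE 0.118), and its second probe gave -1.01. PIGS, a subunit of the enzyme that attaches GPI anchors, had 7.49 and 7.20 in siSMRT+CDDP, against 8.87 and 8.82 in siCtl+CDDP (-1.49). The neurotrophin BDNF had 7.40 and 7.35 in siSMRT+CDDP, against 8.29 and 9.13 in siCtl+CDDP (-1.34, SE 0.246). The siCtl+CDDP arrays of BDNF lay far apart, and its other probes gave -0.33 and -0.34, neither past the threshold. The remaining large falls were in PUDP (-1.44), DENND11 (-1.28), TTPAL (-1.25), SMIM7 (-1.21), the Golgi GTPase gene ARL1 (-1.20) and AGGF1 (-1.20). PUDP is a pseudouridine phosphatase, and its mean siSMRT+CDDP signal was under the floor. A second AGGF1 probe gave -0.37 and did not pass. TDG (-1.22), DENND11 (-1.16), ARL1 (-1.08), TTPAL (-0.98) and AGGF1 (-0.80) were lower in untreated siSMRT cells too. BDNF differed there by -0.76 (limma adjusted p = 0.0569 with every probe tested).

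**Figure D2:**
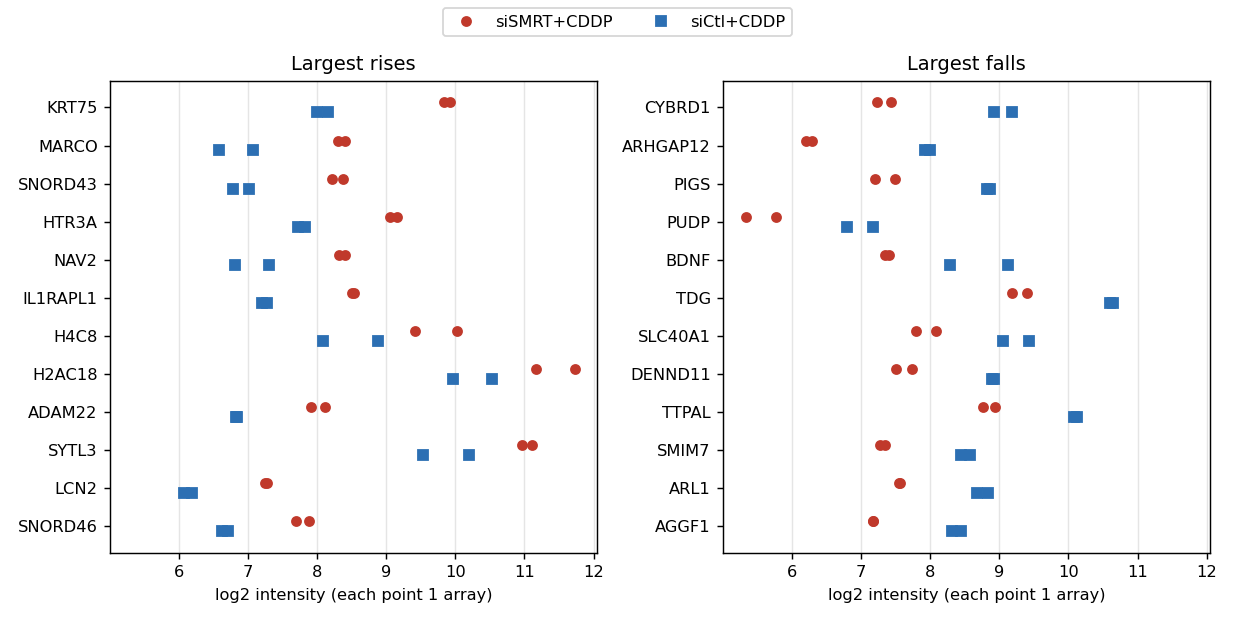
Log2 intensity in each array (x axis) of the 12 genes with the largest rises (left panel) and the 12 with the largest falls (right panel) among genes past the threshold; red circles are the 2 siSMRT+CDDP arrays and blue squares the 2 siCtl+CDDP arrays. The red and blue points do not overlap for any of the 24 genes, and the 2 siCtl+CDDP points lie apart for BDNF, H4C8 and SYTL3.

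The promoters of the largest rise and the largest fall, KRT75 and CYBRD1, are shown with those of LCN2 and SMIM7. Of 20 promoters found for these 24 genes, only those of LCN2 and SMIM7 hold either motif searched. Motifs of NF-kB and BCL6 were not searched. The motifs searched were the AP-1 motif TGANTCA and the nuclear receptor half-site AGGTCA, on both strands, in the 250 bases before the start of transcription (RefSeq, GRCh38.p14). Sequences run 5′ to 3′ on the strand of the gene, and capitals mark a motif. KRT75 lies on the minus strand (chr12:52434372-52434621), LCN2 on the plus strand (chr9:128149203-128149452), CYBRD1 on the plus strand (chr2:171521983-171522232) and SMIM7 on the minus strand (chr19:16660145-16660394).
KRT75: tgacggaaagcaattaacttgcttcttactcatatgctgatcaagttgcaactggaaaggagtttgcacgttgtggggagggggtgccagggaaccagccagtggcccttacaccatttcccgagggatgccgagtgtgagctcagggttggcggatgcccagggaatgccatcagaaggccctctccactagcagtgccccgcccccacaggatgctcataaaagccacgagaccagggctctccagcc
LCN2: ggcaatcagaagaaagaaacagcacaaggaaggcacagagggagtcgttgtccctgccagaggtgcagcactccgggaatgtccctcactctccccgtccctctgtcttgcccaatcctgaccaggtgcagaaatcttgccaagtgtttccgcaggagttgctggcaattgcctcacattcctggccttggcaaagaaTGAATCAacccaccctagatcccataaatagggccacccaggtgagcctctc
CYBRD1: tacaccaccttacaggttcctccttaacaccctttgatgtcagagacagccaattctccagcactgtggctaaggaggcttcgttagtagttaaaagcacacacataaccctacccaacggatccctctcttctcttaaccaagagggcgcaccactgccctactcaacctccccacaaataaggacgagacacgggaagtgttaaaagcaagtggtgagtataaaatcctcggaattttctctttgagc
SMIM7: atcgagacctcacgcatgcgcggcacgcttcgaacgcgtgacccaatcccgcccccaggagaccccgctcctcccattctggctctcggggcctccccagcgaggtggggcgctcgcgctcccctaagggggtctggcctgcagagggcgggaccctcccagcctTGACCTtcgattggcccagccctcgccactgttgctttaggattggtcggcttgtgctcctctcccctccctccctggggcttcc

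In LCN2 the AP-1 motif lies 52 bases before the start, and in SMIM7 the half-site, on the opposite strand, lies 85 bases before it. Each motif had close shares in the promoters of genes that rose, of genes that fell and of all genes. The AP-1 motif is in 4.51% of 621 promoters of genes that rose, 4.35% of 759 that fell and 3.95% of all 8074 tested. The half-site is in 7.89% of those that rose, 8.17% of those that fell and 8.11% of all. These matches are letters in a window and show no binding.

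Among p53 targets the changes under SMRT knock-down in CDDP-treated cells were falls, as read on the brightest probe of each gene. Of 29 measured, 9 fell, none rose and 20 did not pass (31% lower, against 9.39% of all genes), with a median log2 fold change of -0.23, against 0.01 over all genes. The cell-cycle inhibitor CDKN1A had 11.94 and 12.03 in siSMRT+CDDP, against 12.88 and 12.90 in siCtl+CDDP (-0.90, SE 0.0859, limma adjusted p = 0.000122), and its second probe gave -0.62. PPM1D, the Wip1 phosphatase that restrains p53 and the damage kinases, had 10.03 and 10.16 in siSMRT+CDDP, against 10.91 and 10.90 in siCtl+CDDP (-0.81, SE 0.115, adjusted p = 0.00116). TP53INP1, a promoter of p53-driven death, fell by 0.89, and the growth factor gene KITLG by 0.83.

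The other p53 targets that fell were the nuclease AEN, the ubiquitin ligase subunit FBXW7, the sestrins SESN1 and SESN2 and the repair factor XPC (-0.34 to -0.51); 1 of the 3 FBXW7 probes gave -0.03. Among targets that did not pass, a second probe rose for the apoptosis gene BAX (0.71, adjusted p = 0.00463) and for GADD45A (0.40), and another probe fell for RRM2B (-0.61) and ZMAT3 (-0.47). CDDP raised 18 of the 29 in siCtl cells (18.2% of all genes rose), in a comparison that shares the siCtl+CDDP arrays. In siNCOR+CDDP, set against the same siCtl+CDDP arrays, 3 of the 29 were lower and 1 higher (3.1% and 3.5% of all genes), with a median of -0.14. Set directly against siNCOR+CDDP, siSMRT+CDDP was lower at 2 of the 29 and higher at none. Without CDDP, SMRT knock-down lowered 3 of the 29 (8.53% of all genes), and the list had a median of -0.04. PPM1D differed little between untreated siSMRT and siCtl cells (-0.04, adjusted p = 0.853), while CDKN1A was lower there too (-0.88). Without any 1 of the siSMRT+CDDP or siCtl+CDDP arrays the count of p53 targets that fell was 5, as it was when dim probes were kept. AEN, FBXW7, SESN1, SESN2 and XPC each lost their call without at least 2 of these arrays (adjusted p up to 0.214), while CDKN1A, PPM1D, TP53INP1 and KITLG kept theirs under each alternative run.

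In the TGF-beta and BMP pathways, receptors, transducers, inhibitors and targets were among the genes that fell. Of 26, 10 fell, 1 rose and 15 did not pass, with a median of -0.21 (38.5% lower, against 9.39% of all genes). In siNCOR+CDDP, set against the same siCtl+CDDP arrays, 5 of the 26 were lower and none higher, with a median of -0.23 (3.1% of all genes were lower). Between siSMRT+CDDP and siNCOR+CDDP the list had a median of -0.01, with 5 genes lower and 3 higher in siSMRT+CDDP. At the receptors, BMPR2 had 6.58 and 6.81 in siSMRT+CDDP, against 7.87 and 7.41 in siCtl+CDDP (-0.94, adjusted p = 0.00236), and ACVR2A fell by 0.57. Among the transducers SMAD5, which carries BMP signals, had 8.39 and 8.26 in siSMRT+CDDP, against 9.07 and 8.92 in siCtl+CDDP (-0.67). SMAD4, the partner shared by both branches, had 9.71 and 9.77 in siSMRT+CDDP, against 10.59 and 10.26 in siCtl+CDDP (-0.68). SMAD3, which carries TGF-beta signals, was the exception, with 9.51 and 9.49 in siSMRT+CDDP and 9.02 and 9.01 in siCtl+CDDP (0.49, adjusted p = 0.00377).

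Of the inhibitors of the pathway, SMAD7 had 6.59 and 7.01 in siSMRT+CDDP, against 7.53 and 7.78 in siCtl+CDDP (-0.85, adjusted p = 0.00504), and PMEPA1 fell by 0.73, with -0.57 and -0.22 from its other probes, the second of which did not pass. The classical BMP targets ID1, ID3 and ID4 fell by 0.47, 0.51 and 0.44, and the co-repressor gene TGIF1 by 0.47. Among the other TGIF1 probes, those at 0.02 and -0.35 did not pass, and that at -0.75 did. Without CDDP 7 of the 26 were lower and 2 higher, with a median of -0.25; BMPR2 (-1.12) and SMAD5 (-0.89) were lower there too, and SMAD7 was not (-0.15, adjusted p = 0.589). The count under CDDP was 4 without siSMRT+CDDP replicate 2 or siCtl+CDDP replicate 2 and 6 without siSMRT+CDDP replicate 1, with median scaling or with dim probes kept. ACVR2A, PMEPA1, TGIF1 and the ID genes lost their calls in some of these (adjusted p up to 0.268). With arrays blocked by replicate 3 genes of the list rose.

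Among 31 matrix and adhesion genes 6 fell, 2 rose and 23 did not pass (median -0.08). That is 19.4% lower and 6.5% higher, against 9.39% and 7.88% of all genes. The fibrillar collagen gene COL5A2 had 7.67 and 7.44 in siSMRT+CDDP, against 8.59 and 8.40 in siCtl+CDDP (-0.94, adjusted p = 0.00102), and COL3A1 fell by 1.16 to a mean signal under the floor. The laminin chain gene LAMC1 fell by 0.69, the integrin gene ITGAV by 0.58, the matrix protein gene SPARC by 0.51 and the inhibitor of matrix proteases TIMP3 by 0.47. The collagen crosslinking enzyme LOX (0.54) and tenascin C (TNC, 0.45, with 0.06 from a second probe that did not pass) rose. Without siSMRT+CDDP replicate 1 or siCtl+CDDP replicate 1 the count of falls was 3. No rise passed with median scaling or without siCtl+CDDP replicate 2, and 4 rises passed with arrays blocked by replicate.

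**Figure D3:**
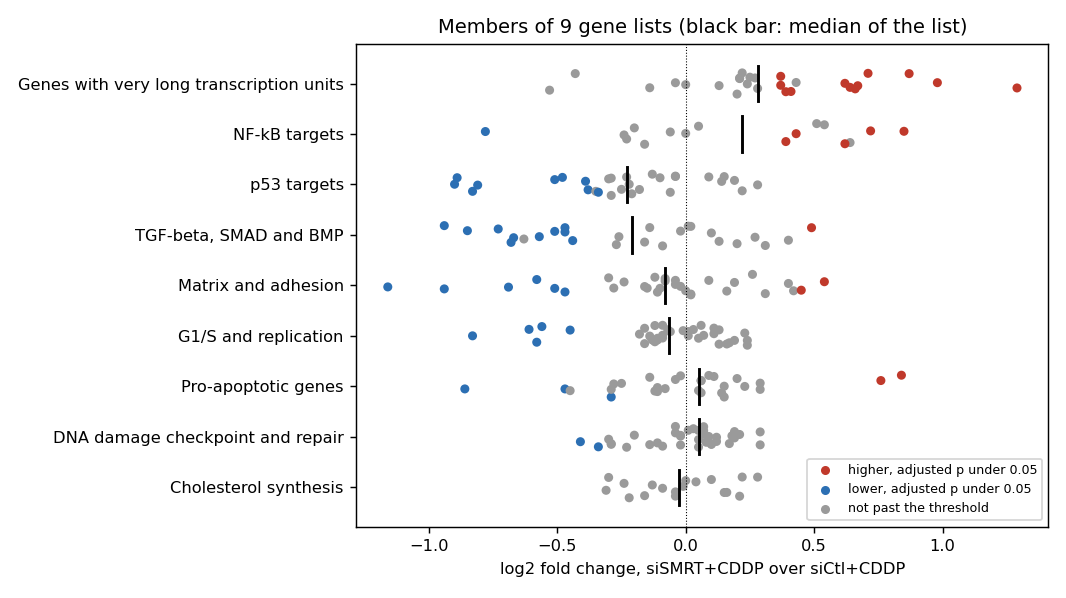
Log2 fold change of siSMRT+CDDP over siCtl+CDDP (x axis) of each tested member of 9 gene lists (rows); red points rose and blue points fell at an adjusted p under 0.05, grey points did not pass, and the black bar is the median of the list. The medians run from 0.28 for genes with very long transcription units to -0.23 for p53 targets.

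The opposite direction was seen in genes with very long transcription units. Of 27, 12 rose, none fell and 15 did not pass (44.4% higher, against 7.88% of all genes), with a median of 0.28. Besides NAV2, the transcription factor gene ZBTB20 had 8.69 and 8.52 in siSMRT+CDDP and 7.68 and 7.57 in siCtl+CDDP (0.98, adjusted p = 0.000753). ERC1, a scaffold of the synapse and of IkB kinase, had 8.32 and 8.24 in siSMRT+CDDP and 7.64 and 7.18 in siCtl+CDDP (0.87). The spindle checkpoint gene MAD1L1 had 9.22 and 9.23 in siSMRT+CDDP and 8.58 and 8.60 in siCtl+CDDP (0.64), while a second probe did not pass (0.32).

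The remaining long genes that rose were TRIO, PTPRG, RAD51B, ATXN1, DIAPH2, PRKCE, EXT1 and FAF1 (0.37 to 0.71), with 0.08 from a second ATXN1 probe that did not pass. In untreated cells 5 of the 27 were higher and 1 lower in siSMRT, with a median of -0.02. In siNCOR+CDDP, which is set against the same siCtl+CDDP arrays, 6 of the 27 were higher and none lower, with a median of 0.12. CDDP lowered 19 of the 27 in siCtl cells (19.4% of all genes fell), in a comparison that shares the siCtl+CDDP arrays. Without siSMRT+CDDP replicate 1 or siCtl+CDDP replicate 2 the count of rises was 6, and ATXN1, DIAPH2, EXT1, FAF1, PRKCE, PTPRG and RAD51B lost their calls when certain siSMRT+CDDP or siCtl+CDDP arrays were left out 1 at a time (adjusted p up to 0.288).

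Over all genes the share of rises was highest among the longest. Genes were cut by genomic span into 10 groups of about equal number. In the longest group (149.3 to 2304.2 kb, GRCh38), 22% of 980 rose and 5.61% fell, with a median log2 fold change of 0.15. Among genes of 57 to 87.8 kb it was the reverse, with 6.84% higher and 15% lower, and in the shortest group 8.27% rose and 4.29% fell. The length was known for 9798 of the 9807 genes. In untreated cells 10% of the longest group was higher in siSMRT and 9.08% lower, with a median of 0.04. In siNCOR+CDDP against the same siCtl+CDDP arrays, 9.18% of the longest group was higher, against 3.5% of all genes, with a median of 0.08. The median CDDP response of the longest group was -0.38 in siSMRT cells and -0.50 in siCtl cells. The share of the longest group that rose was 9.69% and 11.5% without siSMRT+CDDP replicate 1 or 2, and 16% and 11.3% without siCtl+CDDP replicate 1 or 2, where 2.98% to 4.65% of all genes rose.

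**Figure D4:**
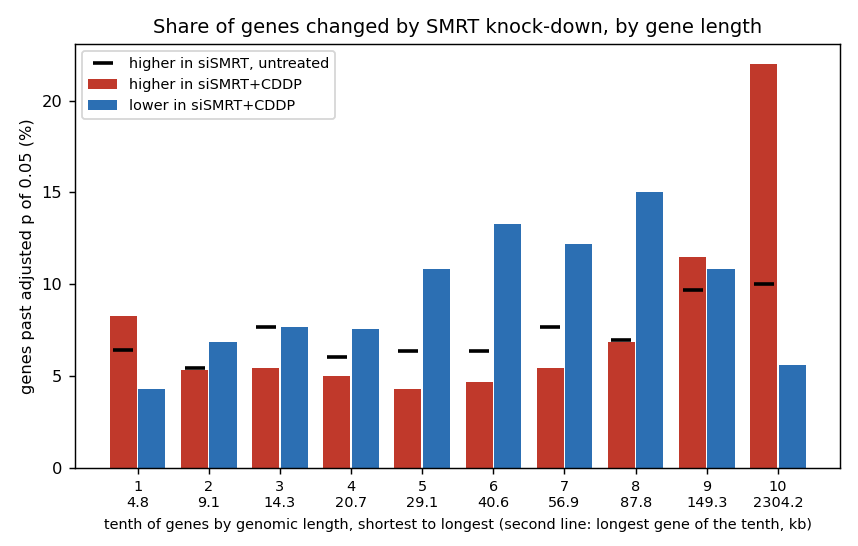
Share of genes past an adjusted p of 0.05 (y axis, %) in each of 10 groups of genes by genomic length (x axis, shortest to longest); red bars are genes higher and blue bars genes lower in siSMRT+CDDP than in siCtl+CDDP, and black dashes are genes higher in siSMRT than in siCtl without CDDP. The red bar of the longest group reaches 22%, and the dash there lies at 10%.

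Among 16 NF-kB targets 5 rose, 1 fell and 10 did not pass (31.2% higher, against 7.88% of all genes, median 0.22). Without CDDP 5 of the 16 were higher and none lower in siSMRT (7.26% of all genes were higher), with a median of 0.40. The effect with CDDP minus that without was negative for 12 of the 16 and positive for 4. Interleukin 1 alpha (IL1A), an inflammatory cytokine, had 7.88 and 7.90 in siSMRT+CDDP and 7.04 and 7.04 in siCtl+CDDP (0.85, adjusted p = 0.000516). SOD2, the mitochondrial superoxide dismutase, had 12.34 and 12.33 in siSMRT+CDDP and 11.57 and 11.67 in siCtl+CDDP (0.72). RELB (0.62), the immune receptor gene CD83 (0.43) and the chemokine gene CCL2 (0.39) rose as well. NFKB1, which encodes the p50 subunit itself, went the other way, with 9.33 and 9.48 in siSMRT+CDDP, against 10.17 and 10.19 in siCtl+CDDP (-0.78, adjusted p = 0.00294). The interleukin 8 gene CXCL8 was higher in siSMRT without CDDP, by 1.25 on its brightest probe and 1.28 on a second. With CDDP it had 11.51 and 11.54 in siSMRT+CDDP and 11.38 and 10.40 in siCtl+CDDP (0.64, limma adjusted p = 0.186), and did not pass. Its siCtl+CDDP arrays were far apart. The count of rises was 3 with median scaling and 2 without either siSMRT+CDDP array or without siCtl+CDDP replicate 1, where CD83, CCL2 and RELB did not pass (adjusted p up to 0.22).

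Pro-apoptotic genes changed in both directions, at shares near those of all genes. Of 29, 2 rose (6.9%, against 7.88% of all genes), 3 fell (10.3%, against 9.39%) and 24 did not pass (median 0.05). Both that rose encode BH3-only proteins, which trigger the mitochondrial route. BCL2L11 (Bim) had 8.32 and 8.27 in siSMRT+CDDP and 7.44 and 7.63 in siCtl+CDDP (0.76, SE 0.138, adjusted p = 0.00408), with 0.74 and 0.80 from its other probes. HRK (Harakiri) had 8.74 and 8.51 in siSMRT+CDDP and 7.68 and 7.88 in siCtl+CDDP (0.84). Their relatives BNIP3L and BNIP3, which also direct the clearance of mitochondria, fell by 0.86 and 0.47. The caspase gene CASP2 fell by 0.29, where its other probes gave 0.26 and -0.46 and did not pass. The fall of CASP2 did not pass with median scaling (-0.26). On the anti-apoptotic side, 1 of 14 genes rose (AVEN, 0.39) and 1 fell (API5, -0.85), which is 7.1% each. Without siSMRT+CDDP replicate 2 only 1 pro-apoptotic gene fell, with median scaling likewise, and AVEN did not pass without siCtl+CDDP replicate 1 or either siSMRT+CDDP array (adjusted p up to 0.187). With arrays blocked by replicate 4 pro-apoptotic genes rose and 6 fell.

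The study followed 6 genes linked to apoptosis by PCR, and their array values are given here as a group that the study chose on these samples. It reported that SMRT held back the CDDP activation of FOS and PPM1D. With SMRT siRNA it reported a loss of the CDDP inhibition of SMAD7, SRPK2, BCL2L11 and MAX. Its blots, with doxorubicin, showed more Wip1 protein with SMRT siRNA, also without the drug. On the arrays BCL2L11 rose, as described above. PPM1D (described above) and SMAD7 (-0.85) were both lower in siSMRT+CDDP than in siCtl+CDDP. These are levels under CDDP, while the study's PCR statements are about the response to CDDP. The effect with CDDP minus that without was 0.21 for BCL2L11, 0.21 for MAX, 0.56 for SRPK2 and -0.70 for SMAD7 on their brightest probes. None of these differences passed, and BCL2L11 was also higher in siSMRT without CDDP (0.55). Why PPM1D and SMAD7 differ from the PCR was not tested. SRPK2, a kinase of splicing factors, had 7.68 and 7.44 in siSMRT+CDDP and 6.91 and 7.0 in siCtl+CDDP (0.60, adjusted p = 0.0147). MAX, the partner of MYC, had 7.75 and 7.73 in siSMRT+CDDP and 7.28 and 7.42 in siCtl+CDDP (0.39, adjusted p = 0.0333), and its other probes gave 0.20 and 0.14. The call of SRPK2 ended without replicate 1 of siSMRT+CDDP or siCtl+CDDP (adjusted p up to 0.111) and that of MAX without any 1 of the 4 arrays (up to 0.177). FOS, a subunit of AP-1, had 10.53 and 10.18 in siSMRT+CDDP and 10.35 and 9.45 in siCtl+CDDP (0.45, adjusted p = 0.201), with overlapping groups. CHEK2, the damage kinase studied with SMRT, had 9.42 and 9.34 in siSMRT+CDDP and 9.45 and 9.35 in siCtl+CDDP (-0.02, adjusted p = 0.892).

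Genes of G1/S transition and replication gave 5 falls and no rise among 36 (13.9% lower, against 9.39% of all genes, median -0.07). E2F3, a driver of S phase entry, had 8.91 and 8.77 in siSMRT+CDDP, against 9.5 and 9.85 in siCtl+CDDP (-0.83, adjusted p = 0.00416). The licensing factor gene CDT1 had 10.93 and 10.76 in siSMRT+CDDP, against 11.40 and 11.52 in siCtl+CDDP (-0.61). MCM10 and DSCC1, which act at the replication fork, and the chromatin assembly gene CHAF1A fell by 0.58, 0.56 and 0.45. Of 40 G2/M and mitosis genes 2 rose (FOXM1 and CDCA3, 0.32 each) and 2 fell (CENPF, -0.45, and KIF2C, -0.39). That is 5% in each direction, below the 7.88% and 9.39% of all genes that rose and fell. A second FOXM1 probe gave 0.19 and did not pass. Among 37 genes of checkpoint and repair TOPBP1 (-0.41) and XPC (-0.34) fell, which is 5.4% of the list. Without siSMRT+CDDP replicate 1 the G1/S count was 3, and the calls of TOPBP1, XPC, FOXM1, CDCA3, CENPF and KIF2C ended there and without siCtl+CDDP replicate 1 (adjusted p up to 0.184).

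SMRT is best known as a partner of nuclear receptors. For the list counts that follow, 7.88% of all genes rose and 9.39% fell. Of 12 retinoid and thyroid receptor targets, 2 rose: DHRS3, which reduces retinal, with 8.45 and 8.38 in siSMRT+CDDP and 7.52 and 7.48 in siCtl+CDDP (0.92, adjusted p = 0.000362), and the retinol carrier receptor STRA6 (0.43). Of 15 PPAR and LXR targets of lipid metabolism, the fatty acid carrier FABP5 rose (0.54), while the desaturase SCD (-0.71), the fatty acid receptor CD36 (-0.65), SREBF1 (-0.56) and the cholesterol exporter ABCA1 (-0.48, under the floor in both groups) fell. No gene of 18 in cholesterol synthesis changed on its brightest probe, but a second probe of the sterol oxidase MSMO1 fell (-0.97, adjusted p = 0.0018, against -0.31 and 0.114 on the brightest). In the clock list the nuclear receptor gene RORA rose (0.80; 2 of its 4 probes did not pass, at 0.15 and -0.12), and CLOCK (-0.44), NR1D2 (-0.43) and TEF (-0.43) fell among 13. Second probes of SREBF1 (-0.43), CLOCK (-0.30) and NR1D2 (-0.47) did not pass. Calls of STRA6, SCD, CD36, SREBF1, ABCA1, CLOCK, NR1D2 and TEF ended when 1 or another of the 4 arrays was left out (adjusted p up to 0.312). Only 1 lipid target fell without either siSMRT+CDDP array or siCtl+CDDP replicate 1, and no clock gene fell without either siSMRT+CDDP array; 5 clock genes fell with arrays blocked by replicate.

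Of the co-repressor complex itself 6 members were tested. ZBTB33 (Kaiso), a methyl-DNA binding factor that recruits NCoR, had 8.46 and 8.58 in siSMRT+CDDP, against 9.38 and 9.40 in siCtl+CDDP (-0.87, adjusted p = 0.000291). TBL1X (0.27) and HDAC3 (0.16) did not pass. AP-1 and immediate-early genes, to which c-Jun recruits co-repressors, showed 1 fall (KLF10, -0.50, with 0.02 and -0.26 from its other probes) among 28. That is 3.6%, against 9.39% of all genes. Without CDDP 6 of the 28 were higher and 1 lower in siSMRT (7.26% and 8.53% of all genes). Of 14 neuronal genes bound by the repressor REST, the neurofilament gene NEFL (-0.70) and the tubulin gene TUBB3 (-0.54) fell along with BDNF. These falls were 21.4% of the list, against 9.39% of all genes. L1CAM rose (0.42), with 0.24 from a second probe that did not pass. No gene changed in the Notch list (13 tested) or among MAP kinase phosphatases (14 tested), where 7.88% of all genes rose and 9.39% fell. KLF10, NEFL, TUBB3 and L1CAM did not pass without siCtl+CDDP replicate 1 or without siSMRT+CDDP replicate 2 (adjusted p up to 0.187).

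Stress lists other than p53 gave few changes, with shares below the 7.88% and 9.39% of all genes that rose and fell. The shares higher and lower were 6.1% and 9.1% in the unfolded protein response list and 0% and 4% in the NRF2 list. They were 5.9% each in the interferon list and 0% and 7.5% among ribosomal protein genes. In the unfolded protein response, the chaperone gene HSPA5 (BiP) had 9.37 and 9.17 in siSMRT+CDDP, against 10.08 and 9.95 in siCtl+CDDP (-0.74, adjusted p = 0.00102), and PDIA4 fell by 0.59, while SDF2L1 (0.49) and DNAJC3 (0.76, under the floor in siCtl cells) rose; 28 of 33 genes of that list did not pass. NQO1 was the 1 gene of 25 in the NRF2 list to fall (-0.72), and the interferon list of 17 gave 1 rise (BST2, 0.37) and 1 fall (IFI44L, -0.57). Of 40 ribosomal protein genes 3 fell: RPS23 (-0.86), RPL28 (-0.48) and RPL37 (-0.38). Calls of NQO1, BST2, IFI44L, RPL28 and RPL37 ended without siCtl+CDDP replicate 1 or siSMRT+CDDP replicate 1 (adjusted p up to 0.195). With arrays blocked by replicate the counts were 4 falls in the NRF2 list and 3 rises and 3 falls in the interferon list.

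Markers of other cell types were checked as well, in short lists. Over all genes 7.88% rose and 9.39% fell. Of the markers tested, 50% of 4 epithelial and 33.3% of 6 haematopoietic genes rose, and none of these fell. Among 12 mesenchymal and 3 neural markers 16.7% and 33.3% fell, and none rose. Of 13 epithelial markers 4 had a signal above 100, and 2 of them rose, EPCAM (0.62, 9.33 and 9.44 in siSMRT+CDDP and 8.82 and 8.71 in siCtl+CDDP) and KRT8 (0.30). E-cadherin (CDH1), KRT5, KRT14 and KRT19 were under 100 in all 4 arrays. The summed signal of the epithelial list was 18900 to 19548 in siSMRT+CDDP and 15838 to 15910 in siCtl+CDDP, mostly from KRT18. KRT18 did not pass (0.27, with -0.20 and 0.08 from its other probes). The summed signal of the mesenchymal list was 35868 to 36963 in siSMRT+CDDP and 40887 to 41150 in siCtl+CDDP, mostly from VIM, which did not pass. The caveolin gene CAV1 fell (-0.94). Of 11 haematopoietic markers with a probe 6 were above 100, and CD3D (0.69) and HBA1 (0.76) rose, while PTPRC, HBB and SPI1 were under 100. The neural list gave 1 fall (SLC1A3, -0.56) among 3 tested. KRT8 and SLC1A3 did not pass without either replicate of siCtl+CDDP (adjusted p up to 0.176). The part of these markers in the results above was not tested.

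The CDDP arrays were set against the arrays without CDDP to ask which effects of SMRT knock-down need the damage. Without CDDP 712 genes were higher and 837 lower in siSMRT than in siCtl cells (7.26% and 8.53%), on arrays that the CDDP comparison does not use. Of the 773 genes that rose under CDDP, 735 (95.1%) had the same sign without it, and 339 passed there too, which is 43.9% of the CDDP list and 47.6% of the untreated one. Of the 921 that fell, 849 (92.2%) had the same sign and 473 passed, 51.4% and 56.5% of the lists, and 1 passed in the opposite direction. Across the 9807 genes the log2 fold changes with and without CDDP had a Pearson correlation of 0.70 and a Spearman correlation of 0.63. Genes are not independent replicates, and all 8 arrays share the same normalization.

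**Figure D5:**
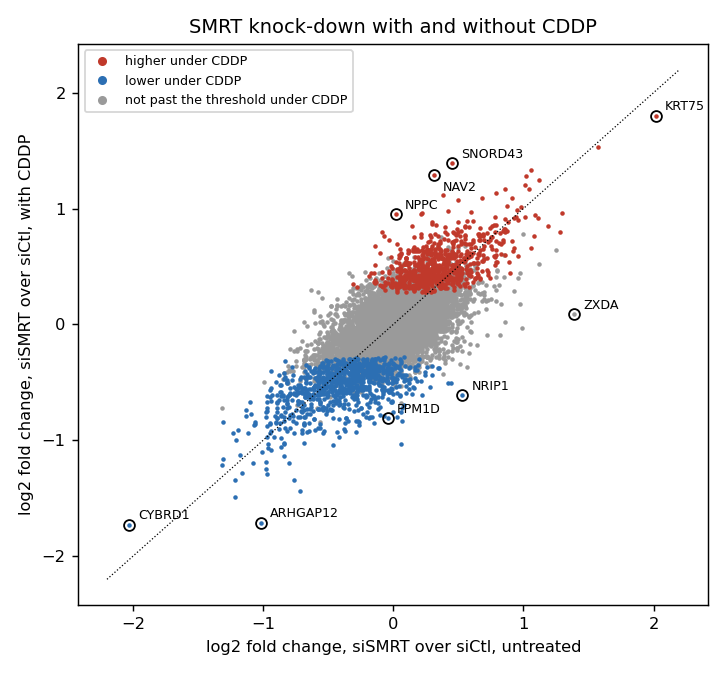
Log2 fold change of siSMRT over siCtl with CDDP (y axis) against that without CDDP (x axis) for 9807 genes; red and blue points rose and fell under CDDP at an adjusted p under 0.05, grey points did not pass, and the dotted line marks equal changes. KRT75 and CYBRD1 lie near the line, and ZXDA, NRIP1 and NPPC are among the points farthest from it.

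The difference between the effects with and without CDDP was positive past the threshold for no gene (0%) and negative for 1 of 9807 (0.0102%). ZXDA, a zinc finger gene of the X chromosome, had 6.61 and 6.34 in siSMRT+CDDP and 6.29 and 6.50 in siCtl+CDDP (0.09), and without CDDP 7.71 and 7.82 in siSMRT and 6.38 and 6.37 in siCtl (1.39). The difference was -1.30 (SE 0.163, limma adjusted p = 0.0369), and 896 genes had an unadjusted p under 0.05. These values are from the brightest of 3 ZXDA probes, on which ZXDA was higher in both untreated siSMRT arrays and overlapped between the groups with CDDP. The other probes rose under CDDP too (0.49 and 0.52, adjusted p = 0.0186 and 0.046) and by more without it (1.52 and 1.51), and their differences of -1.04 and -0.98 did not pass (adjusted p = 0.241 and 0.298). The call ended without any 1 array other than siSMRT+CDDP replicate 1 and the siNCOR+CDDP arrays (adjusted p 0.0628 to 0.377).

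The genes next in order of p did not pass. The co-repressor gene NRIP1 (RIP140) had 7.27 and 7.20 in siSMRT+CDDP, against 7.79 and 7.91 in siCtl+CDDP (-0.61), and 9.22 and 9.15 in untreated siSMRT, against 8.61 and 8.70 in untreated siCtl (0.53), a difference of -1.14 (adjusted p = 0.231). It was the 1 gene that passed in opposite directions, and its call under CDDP ended without replicate 2 of siSMRT+CDDP or siCtl+CDDP (adjusted p up to 0.0646). NPPC, the C-type natriuretic peptide, had 7.12 and 7.0 in siSMRT+CDDP and 6.22 and 6.00 in siCtl+CDDP (0.95), and 0.02 without CDDP. Among genes named above, NAV2 (1.29 with CDDP and 0.31 without), SNORD43 (1.39 and 0.45), PPM1D (-0.81 and -0.04), NFKB1 (-0.78 and -0.10) and E2F3 (-0.83 and 0.07) passed with CDDP and not without it, but none of these differences passed.

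SMRT knock-down was also set against knock-down of its relative NCoR under CDDP. Against siNCOR+CDDP, siSMRT+CDDP was higher at 713 genes and lower at 874 (7.27% and 8.91%). With median scaling of the arrays the split turned to 606 higher and 410 lower. The deaminase gene APOBEC3B had 11.45 and 11.36 in siSMRT+CDDP and 10.01 and 9.98 in siNCOR+CDDP (1.41, SE 0.102, limma adjusted p = 1.54e-05), with 10.67 and 10.64 in siCtl+CDDP between them. AK4, a mitochondrial adenylate kinase, had 11.01 and 11.15 in siSMRT+CDDP and 9.91 and 9.83 in siNCOR+CDDP (1.21), with 10.50 and 10.48 in siCtl+CDDP. Both genes were thus higher with siSMRT and lower with siNCOR than with siCtl, though 1 of the 4 probes of AK4 fell with siSMRT (-0.54).

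DHRS3 had 8.45 and 8.38 in siSMRT+CDDP and 7.25 and 7.15 in siNCOR+CDDP (1.22). Of the falls, RAB1A, a GTPase of transport from the endoplasmic reticulum to the Golgi, had 7.31 and 7.45 in siSMRT+CDDP, against 8.93 and 8.93 in siNCOR+CDDP (-1.56, adjusted p = 1.27e-05). ARL1 differed by -1.36 and CYBRD1 by -1.68. The siNCOR values of ARL1 and CYBRD1 were near those of siCtl (0.16 and -0.05), and neither of these passed. NCoR knock-down itself raised 343 genes and lowered 304 against siCtl+CDDP (3.5% and 3.1%), on the same siCtl arrays. KRT75, MARCO and LCN2 also rose in siNCOR+CDDP against siCtl+CDDP (1.05, 1.05 and 0.74), by less than in siSMRT+CDDP (differences of 0.75, 0.48 and 0.39, adjusted p = 0.0014, 0.0469 and 0.0183). For PPM1D and SMAD7 the difference between siSMRT+CDDP and siNCOR+CDDP did not pass (-0.10, SE 0.115, and -0.05, SE 0.16, adjusted p = 0.598 and 0.867).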

How the data were processed

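U2OS cells in 6 groups of 2 arrays were measured; each array reads total RNA by 1 colour. The deposited values used are linear probe intensities, 1 file per array, which the authors exported from BeadStudio (version not given in the sources used here) per the labels. Per the authors' supplementary methods, a second deposited table of intensity values was processed with Corgon and multi-loess normalization; it served as an alternative.

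limma 3.58.1 in R 4.3.3 applied the normexp background model (offset 16, saddle-point fit), then quantile normalization, then log2. With neither detection p nor control probes in these files, the filter on dim probes was a signal floor of 100, on quantile-normalized signals without background correction, to be passed by both arrays of any 1 group. Of 48803 probes 27578 name 1 gene, 13 several and 21212 none; 12637 kept probes name 9807 genes, each represented by its brightest probe on average. Of 542 list members 173 had several kept probes; in 19 another probe passed where the brightest did not, and in 13 the brightest passed where another did not. For many genes named for a call, other probes that did not pass are given. The design had foreseen control probes; without them normexp was used alone.

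The model has 1 coefficient per group over all 12 arrays, empirical Bayes variances and Benjamini-Hochberg adjustment. Named genes are the 12 largest rises and falls past the threshold with 1 direction in every same-numbered pair, up to 4 genes of smallest p per list, genes of the study's PCR, the 5 of smallest p for the difference with and without CDDP, and 3 in each direction against siNCOR+CDDP among genes also past the threshold against siCtl+CDDP. Other list members, E-cadherin and KRT genes among the markers, and the genes of the closing observations were named after their values were seen. The members and lists were chosen with earlier results of these data known, so list counts are descriptions. The comparisons with siNCOR+CDDP and with the CDDP response share arrays with the main one.

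Same-numbered arrays deviate together in 15 of 15 pairs of groups (correlation 0.204 to 0.42), and the numbers separate on principal component 4 (3.93% of the variance), so the replicate number pairs the arrays. The main fit, with its p-values and calls, does not use this pairing. With the replicate number as a block 2508 genes passed, against 1694 in the main fit. A fit with that block, other background corrections, median scaling, the authors' values, other filters, every probe, only the arrays compared, and each array left out were the alternatives. The script was tested on simulated data. p-values measure the spread between 2 biological replicates per group. Promoters and gene spans are RefSeq's (GRCh38.p14), and a window was found for 8074 genes. Plots were drawn with matplotlib 3.10.9 (Python 3.11.15), and tables made with pandas 2.3.3 and numpy 2.4.6. The longest genes under each alternative were added after seeing the data.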

Additional observations from a re-analysis of the deposited data

Results flagged for a closer look

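ZXDA stands out because the effect of SMRT knock-down differed with and without CDDP in a test of that difference (-1.30 on the log2 scale, SE 0.163, limma adjusted p = 0.0369), where siSMRT was above siCtl by 0.09 with CDDP and by 1.39 without it on its brightest probe. Its other probes rose under CDDP (0.49 and 0.52), and their differences of -1.04 and -0.98 did not pass (adjusted p = 0.241 and 0.298). The effects of the siRNAs against SMRT and against NCoR under CDDP differed, in the direct comparison of both groups, at 1587 genes with an adjusted p under 0.05 (713 higher and 874 lower in siSMRT+CDDP). Groups of 2 arrays were too small for a search for outlying arrays.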

How the results depend on the processing

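Genes higher in siSMRT+CDDP than in siCtl+CDDP numbered 773. They were 354 with median scaling, 464 with no filter on dim probes and 1188 with the replicate block. Genes lower numbered 921, against 530 with median scaling and 583 with no filter. All 1694 genes called were also called with the block, and 869 with median scaling. Against siNCOR+CDDP the 874 lower genes became 410 with median scaling. Calls for the difference with and without CDDP (1) became 0 with median scaling, with no filter and with only the arrays compared. Leaving out each array gave 292 to 806 higher and 426 to 978 lower genes against siCtl+CDDP, 326 to 718 higher and 478 to 873 lower against siNCOR+CDDP, and 0 to 3 calls for the difference. With 1 array left in a group, that array is assumed to vary like the others. Of 143 named genes past the threshold, 68 stayed past it under every alternative run, 75 were lost when some array was left out and 46 under another alternative. No named gene called in the main comparison changed sign. The offset of 50, no background correction, the authors' values, the looser floor and every probe left these counts within 1.5 times. Blocking by replicate number took no named call below the threshold. The median change over all genes was 0.006 under both quantile and median scaling. Low signals limit LCN2, PUDP, ARHGAP12, COL3A1, ABCA1, DNAJC3, BST2, HBA1 and NPPC, whose mean was under the floor of 100 in at least 1 group. They also limit RNU11, H2BC6 and ARL14 of the observations below. Their siCtl+CDDP log2 values (5.67 and 6.14, 6.00 and 6.17, and 5.95 and 6.29) were about as low as those of LCN2 (6.19 and 6.08).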

Other observations

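Histone genes were looked up after H4C8 and H2AC18 had been seen among the largest rises, and both are included in the rises counted here. Of 26 tested, 10 rose in siSMRT+CDDP against siCtl+CDDP and none fell (median log2 fold change 0.33), by limma at an adjusted p under 0.05, where 7.88% of all genes rose and 9.39% fell. Those that rose included H2BC6 (0.88), H2BC4 (0.85), H2AC6 (0.82), the linker histone H1-2 (0.78) and H2BC11 (0.71). These are replication-dependent histones, whose genes lie in clusters. Other such genes did not pass, among them H4C3 (-0.07) and H2BC5 (0.00). Of the variants made outside S phase, H1-10 rose (0.34, adjusted p = 0.0301), and H2AZ1 (-0.02) and H3-3A (-0.02) did not pass. In untreated cells 7 were higher and 1 lower in siSMRT (7.26% and 8.53% of all genes). With siNCOR under CDDP 8 were higher than in siCtl (3.5% of all genes), in a comparison that shares the siCtl+CDDP arrays. Near-identical copies make single histone genes uncertain, and each of the 5 named here lost its call without siCtl+CDDP replicate 1 or siSMRT+CDDP replicate 2 (adjusted p up to 0.201).

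Small nuclear and nucleolar RNAs were looked up in the same way, and SNORD43 and SNORD46 of the largest rises are included in the count. Of 35 tested, 10 rose and none fell under CDDP (median 0.27), where 7.88% and 9.39% of all genes did so. In untreated cells 3 were higher in siSMRT and none lower, near the 7.26% of all genes that were higher. The spliceosomal RNU11 (0.95) and RNU6ATAC (0.54), both of the minor spliceosome, were among the 10 that rose under CDDP. So was RN7SK (0.80), which holds the elongation kinase P-TEFb inactive. RNU11 differed by 0.21 without CDDP and RN7SK by -0.09. CDDP raised 24 of the 35 in siCtl cells (18.2% of all genes), in a comparison that shares the siCtl+CDDP arrays. RN7SK and RNU6ATAC did not pass without siCtl+CDDP replicate 1 or either siSMRT+CDDP array (adjusted p up to 0.15). Small RNAs inside introns share sequence with the precursor of their host gene.

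Iron genes were looked up after CYBRD1, SLC40A1 and LCN2. Of 17 tested, 3 rose and 4 fell under CDDP, against 7.88% and 9.39% of all genes. These counts include the genes that prompted the search, LCN2 among the rises and CYBRD1 and SLC40A1 among the falls. FECH, the last enzyme of haem synthesis, fell (-0.75, adjusted p = 0.00271), as did the iron chaperone gene PCBP1 (-0.33). The zinc and iron carrier SLC39A8 (0.41) and the metalloreductase STEAP1 (0.47, with 0.42 and 0.30 from its other probes, the second of which did not pass) rose. The transferrin receptor TFRC (-0.08), the ferritin light chain FTL (0.03), the importer SLC11A2 (0.06) and the regulator ACO1 (-0.06) did not pass. The calls of PCBP1, SLC39A8 and STEAP1 ended with 1 or another of the siSMRT+CDDP and siCtl+CDDP arrays left out (adjusted p up to 0.195).

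RAB, ARL and ARF small GTPases of vesicle transport gave 12 falls and 5 rises among 57, where 9.39% of all genes fell and 7.88% rose, so that the rises were near the share of all genes. Beside ARL1 and RAB1A, RAB10 (-0.79), RAB11A (-0.76), RAB38 (-0.63) and RAB22A (-0.62) fell, and RAB17 (0.67) and ARL14 (0.60) rose. In untreated cells 13 were lower and 4 higher in siSMRT (8.53% and 7.26% of all genes). RAB38 and ARL14 did not pass without siSMRT+CDDP replicate 2 (adjusted p up to 0.231). RAB2A has probes that passed in opposite directions (0.37 and -0.64).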
